A study of Mus musculus with 12 samples.

Results

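Microglia of mice in the chronic phase of chronic-relapsing experimental autoimmune encephalomyelitis (crEAE) were compared with microglia of mice in the acute phase, the first attack. In crEAE, an autoimmune attack on the brain and spinal cord is induced, attacks are followed by remission and then by a lasting chronic stage, and the course serves as a mouse model for multiple sclerosis. The comparison takes the 6 libraries whose disease phase is labelled Chronic (3) or Acute (3), out of 12 in the series. The other groups, used here as references, were 3 libraries of control mice and 3 of mice in remission. All mice were of the Biozzi ABH strain, there were 3 mice per group, and the labels give no age, no genetic change and no day of disease. What the control mice received, and by what score a phase was assigned, is not stated either. Cells were sorted from the spinal cord as CD11b-positive, CD45-intermediate and Ly-6C-negative, so the gate rests on surface proteins that blood-derived myeloid cells can share in part.

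Microglia are the resident macrophages of the brain and spinal cord. In the healthy tissue they hold a homeostatic state that depends on TGF-beta and is marked by genes such as P2ry12, Tmem119 and Cx3cr1. During demyelinating disease they can turn to a damage-associated state, with genes of lipid uptake, lysosomes and phagocytosis, and they respond to interferons with genes of antigen presentation, antiviral defence and chemoattraction. Monocytes that enter the cord during an attack express many of the same inflammatory genes, along with Ccr2 and Ly6c2.

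Total counts were 4173825 to 4669475 in the acute and 4354317 to 5712376 in the chronic libraries. The 6 features with the most counts took 62.4 to 64.1% of an acute and 56.4 to 62.7% of a chronic library, and 1266782 to 2095754 counts per library remained outside them and the mitochondrially encoded genes. This remainder sets the precision. The mitochondrially encoded genes took 5.17 to 5.74% of an acute, 3.02 to 4.36% of a chronic and 1.92 to 2.29% of a control library, so this share separated the phases without overlap, and its part in the differences was not tested. On the first principal component of all 12 libraries, which held 56.1% of the variance, the acute libraries stood at 84.8 to 103, the chronic at -20.2 to -2.17, the remission at -33.2 to -7.94 and the control at -57.7 to -53.7. Levels are given as CPM, the count scaled to the library size after trimmed-mean (TMM) scaling, replicates 1 to 3 in order, and a log2 fold change is chronic minus acute with its standard error (SE). Replicate numbers are record order and link no mice.

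Of 12545 genes tested, 3610 (28.8%) differed between the chronic and the acute phase at an adjusted p under 0.05 in edgeR's quasi-likelihood test: 1670 (13.3%) were higher and 1940 (15.5%) lower in the chronic phase. Differences beyond 2-fold were found in 843 of the higher and 1137 of the lower genes. Beyond 8-fold there were 78 higher and 411 lower genes. The acute and chronic libraries did not overlap in 5032 of the 12545 genes, called or not, so a lack of overlap alone is common. Scaling by library totals alone moved the median of all genes from -0.00482 to 0.189. It turned the split to 2298 higher and 1271 lower, so that 64.4% of the calls were higher, against 46.3%. With the number that ends the sample title as a covariate 2402 genes were called, 1278 of them lower. No gene called in the main fit changed its direction under that or any other alternative. A p above the threshold does not show that levels are alike, and the interval of the difference was used for that. In 5719 genes (45.6%) the whole 95% interval lay within 2-fold. In 3924 genes the difference was neither called nor bounded within 2-fold, and for these the data decide neither way.

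**Figure D1:**
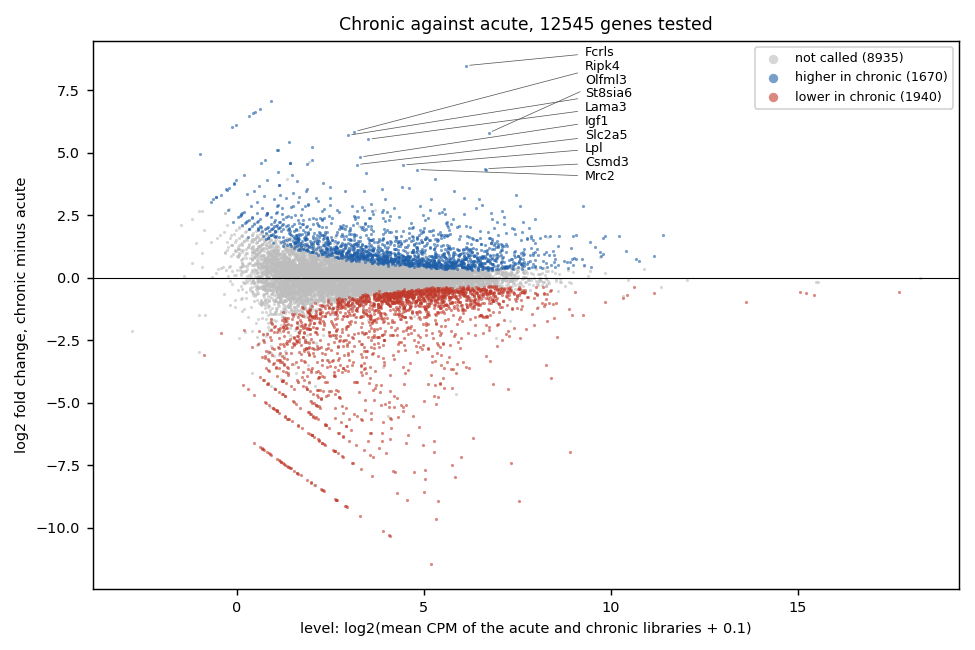
Level (x axis, log2 of the mean CPM of both groups plus 0.1) against the log2 fold change of chronic minus acute (y axis) for 12545 genes; grey points were not called, and the names mark the 10 largest increases among called genes whose higher group averaged 10 CPM or more, leaving out predicted genes and pseudogenes. The lower tail reaches further than the upper one, and the diagonal rows of points at low level are genes with 0 or few counts in a group, whose fitted fold change depends on the prior count.

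Set beside the control libraries in the same fit, most of these genes were not called. Of the 1670 genes higher than in the acute phase, 1239 were not called against control, 254 were still below control and 177 were above it. Among the 1940 lower genes, 1452 were not called against control, 422 were still above control and 66 were below it. These counts share the chronic libraries and are a description. Over all 12545 genes tested, 1200 were above and 648 below control in the chronic phase, and 2977 were above it in the acute phase.

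The sort was checked first. Ptprc, which encodes CD45, stood at 434, 441 and 398 CPM in the acute and 329.8, 399.6 and 403 in the chronic libraries, an interval of the log2 difference of -0.44 to 0.10. Itgam, which encodes CD11b, stood at 61.7, 96.7 and 99.6 (acute) and 161, 135 and 229.5 (chronic) CPM and was higher in the chronic phase (log2 fold change 1.03 ± 0.21, adjusted p 0.00219). Ly6c2, a gene of the antigen that the gate excludes, stood at 76.5, 74.6 and 42.7 CPM in the acute and 0, 0.36 and 0.255 in the chronic libraries, a pooled ratio of 303 with an exact 95% counting interval of 103 to 1472. Its transcript was thus present in each acute library and at most a trace in the chronic ones, while Ly6c1 was too low to be tested.

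Transcripts known from monocytes and T cells were higher in the acute libraries. Of 20 tested monocyte and recruited macrophage markers 18 were lower in the chronic phase and none higher, with a median of -5.0 against -0.00482 over all genes. Their summed level was 2584 to 3626 CPM in the acute and 195 to 234 in the chronic libraries, against 49.1 to 106 in control. The groups did not overlap, and the exact two-sided permutation p over 3 against 3 libraries was 0.1, the smallest this design allows. S100a4 and F10 had 0 counts in all chronic libraries. Vim, an intermediate filament, stood at 344, 298 and 219 CPM in acute and 14.8, 10.1 and 14.5 in chronic libraries (log2 fold change -4.47 ± 0.20, adjusted p 2.77e-11). Ccr2, the chemokine receptor that draws monocytes out of the marrow, stood at 145, 147 and 88 (acute) and 0.908, 1.08 and 0.51 (chronic) CPM (-7.16 ± 0.49, adjusted p 2.77e-11). Every chronic library was below every control library for Ccr2, which held 2.84, 1.58 and 3.88 CPM (adjusted p 0.0291).

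The other marker lists differed in size. T and NK cell markers summed to 120.0 to 186 CPM in acute and 8.4 to 14.8 in chronic libraries, with 11 of 12 tested lower and Cd3e, Trac and Zap70 among 10 members at 0 in every chronic library. Of 11 neutrophil markers 8 were lower (5 without chronic replicate 2 or under the title-number covariate). Csf3r, the receptor of the granulocyte growth factor, was higher. The neutrophil markers summed to 279 to 601 CPM in acute and 302 to 358 in chronic libraries, which overlap, and Csf3r made up most of the chronic sum, at 116, 155 and 151 (acute) and 324, 358 and 289.7 (chronic) CPM. Oligodendrocyte and myelin markers summed to 469 to 637 and 88.8 to 114 CPM. Of 12 tested 9 were lower (4 without chronic replicate 1 or 2, 5 under the title-number covariate). The 1 higher marker was the proteoglycan Cspg4, at 2.59, 1.33 and 4.45 (acute) and 29.5, 20.2 and 4.08 (chronic) CPM, with chronic replicate 3 in the acute range, and none was higher without any 1 acute library, chronic replicate 1 or 2, or control replicate 1. Astrocyte markers summed to 225 to 280.1 and 118 to 208 CPM with 6 of 9 lower (3 without acute replicate 1), while the glutamate transporter Slc1a3 was higher, at 35.5, 46.9 and 50.7 (acute) against 186, 111 and 84.4 (chronic) CPM. Of 3 erythroid genes tested 3 were lower, and of 4 border macrophage genes 3. The erythroid count was 2 with library totals alone and without any 1 acute, chronic or control library other than acute replicate 3. The hemoglobin gene Hbb-bs also lost its call under the title-number covariate (adjusted p 0.133) and with no filter beyond 1 count (0.094). Of 6 dendritic cell markers 1 was lower (0 under the title-number covariate) and 2 were higher. The list shares Siglech with the homeostatic list, and its sum was highest in control (508 to 593 CPM). That sum was 114 to 125 CPM in acute and 239 to 290 in chronic libraries. Ccr7, Ccl22 and Ccl17, too low to be tested, had 67, 56 and 17 pooled counts in acute and 1, 3 and 3 in chronic libraries. Where 1 library was left out the filter was run again, and the lower count then reached 5 border macrophage genes without chronic replicate 3 and 4 dendritic cell markers without acute replicate 3 or any 1 chronic or control library. Of 5 neuronal markers none was called. Of 4 B and plasma cell markers 3 were higher (1 without chronic replicate 2 or under the title-number covariate). The part of these other transcripts in the differences described below was not tested. In bulk samples, fewer cells of a type and less RNA per cell cannot be told apart.

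**Figure D2:**
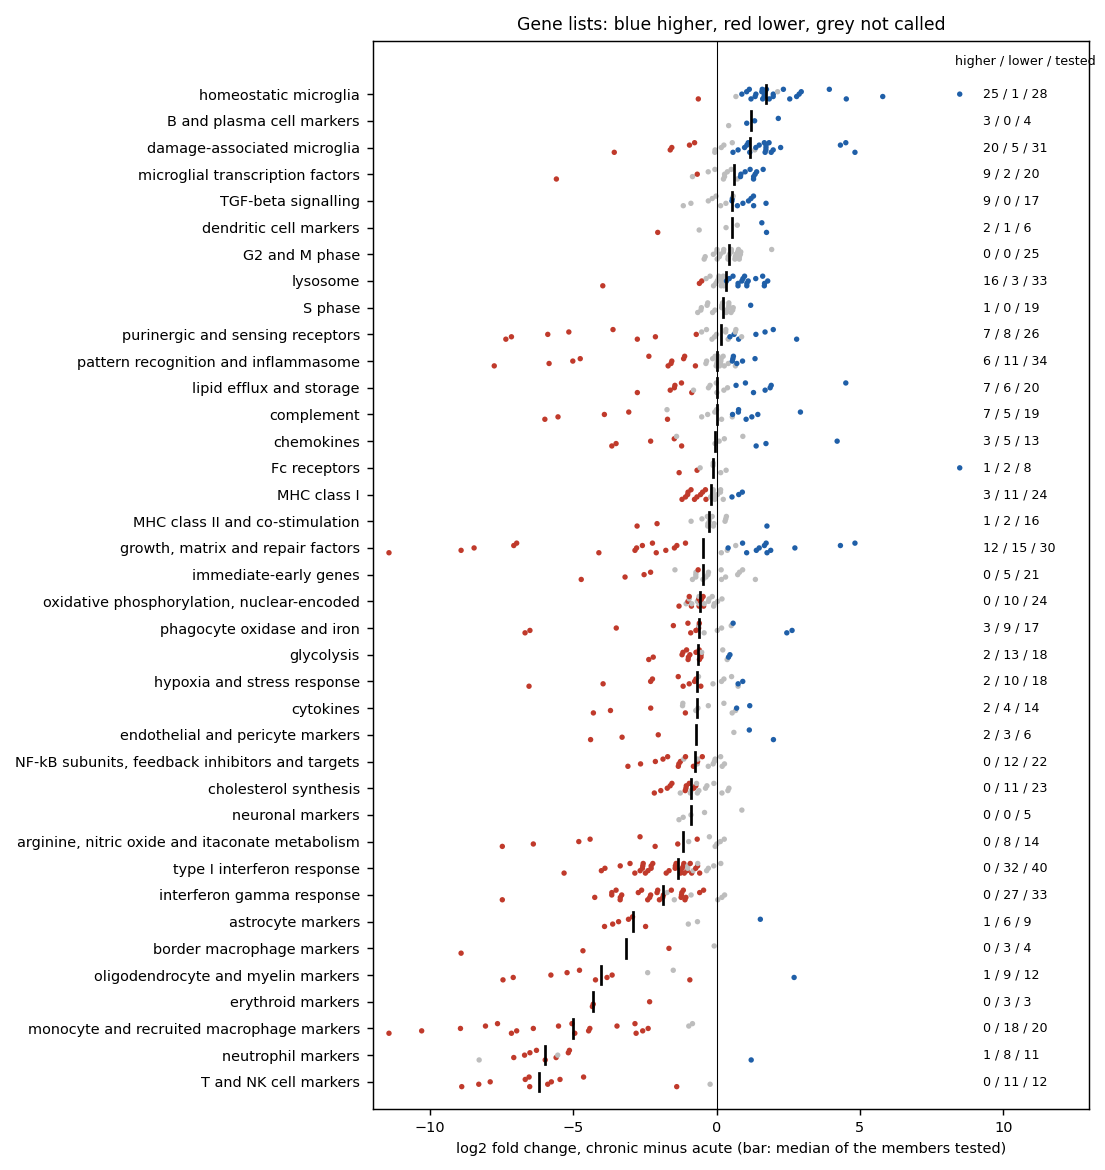
Log2 fold change of chronic minus acute for the tested members of 38 gene lists (x axis; 1 point per gene, vertical bar the list's median), with the numbers called higher, called lower and tested at the right. Homeostatic, damage-associated and TGF-beta genes lie mostly to the right of 0, and interferon response and other-cell genes to the left.

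The largest increases included genes of resting microglia, and the largest decreases genes known from blood-derived cells. Fcrls, an Fc receptor-like protein of the microglial surface (ENSMUSG00000015852; GRCm38 chromosome 3, 87250758 to 87263738, - strand), stood at 0, 0.799 and 0.296 CPM in the acute and 166, 154 and 96.7 in the chronic libraries. It was nearly absent from the acute libraries, and its chronic level overlapped that of the control libraries, 93.5, 103 and 114 CPM (log2 fold change 8.48 ± 0.80, adjusted p 6.57e-11). Olfml3, a secreted protein enriched in microglia, stood at 2.08, 4 and 5.34 (acute) and 190.0, 196 and 242 (chronic) CPM (5.79 ± 0.27, adjusted p 5.14e-12), without overlap. Csmd3, a transmembrane protein with complement-like domains, stood at 4.41, 8.53 and 15.1 (acute) and 211, 183 and 173 (chronic) CPM, against 312, 519.6 and 359 in control. The collagen receptor Mrc2 (3.11, 2.93 and 1.78 (acute) against 49.5, 32.1 and 79.8 (chronic) CPM), the fructose transporter Slc2a5 (0.519, 0.799 and 0.889 (acute) against 10.4, 13.9 and 28.3 (chronic)) and the sialyltransferase St8sia6 (0.519, 0 and 0.296 (acute) against 17.9, 20.5 and 7.14 (chronic)) were below their control levels in the chronic phase as well (adjusted p 0.0332, 0.00217 and 0.00424).

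Others of the 10 largest increases were low in control libraries. Igf1, an insulin-like growth factor, stood at 0.142, 0 and 0 CPM in control, 0.519, 0.266 and 1.19 in acute and 20.9, 23.8 and 11.5 in chronic libraries (chronic against acute 4.82 ± 0.66, adjusted p 6.23e-07). Lama3, a laminin chain, stood at 0.427, 0.701 and 0.432 (control), 0.259, 0.266 and 0.889 (acute) and 27.2, 30.8 and 8.42 (chronic) CPM (adjusted p 4.26e-06). The lipoprotein lipase Lpl stood at 2.33, 1.86 and 1.19 CPM in acute and 45.6, 66.1 and 12.2 in chronic libraries (adjusted p 0.00515), with chronic replicate 3 far below the other two. Ripk4, a kinase studied in skin, is described with the genes highest in the chronic phase.

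On the lower side, 7 of the 10 largest differences had 0 counts in all 3 chronic libraries, so the fold is a bound against a floor of 3 counts over the group. Coagulation factor X, F10 (ENSMUSG00000031444; GRCm38 chromosome 8, 13037308 to 13056676, + strand), stood at 88.5, 76.2 and 53.9 CPM in the acute libraries and was at least 341-fold lower in the chronic ones. The decoy interleukin-1 receptor Il1r2 was at least 159-fold lower, the metalloprotease Adam19 at least 139.9-fold and the interleukin-18 receptor subunit Il18r1 at least 91.8-fold. The lymphocyte GTPase Gimap3 was at least 67.8-fold lower. Gpr141, an orphan receptor, had 1 count in the chronic libraries, so it was 1122-fold lower there (counting interval 201 to 44378), and the transglutaminase F13a1 had 2 counts and was 576-fold lower (counting interval 159 to 4766). Chil3, a chitinase-like protein of myeloid cells, stood at 451, 322 and 333 CPM in acute and 0.454, 0 and 2.04 in chronic libraries (-8.94 ± 1.0, adjusted p 3.03e-05).

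Homeostatic microglial genes were higher in the chronic phase almost throughout. Of 28 tested, 25 were higher and 1 lower, with a median log2 fold change of 1.71 against -0.00482 over all genes. The summed level was 3866 to 5525 CPM in the acute, 11576 to 12797 in the chronic and 15987 to 18545 in the control libraries, so the chronic sum lay between the other two without overlap. P2ry12, a purine receptor that guides microglial processes, stood at 45.7, 71.7 and 82.1 CPM in acute and 246, 298 and 238 in chronic libraries (1.97 ± 0.17, adjusted p 1.03e-07). Its chronic level stayed under that of every control library, which held 573, 746 and 719 CPM (chronic minus control -1.38, adjusted p 7.42e-06). Tmem119 stood at 145, 177 and 238 (acute) and 577, 568 and 617 (chronic) CPM (1.65 ± 0.15). Cx3cr1, the fractalkine receptor, stood at 309, 398 and 586 (acute) and 1216, 1584 and 1364 (chronic) CPM (1.69 ± 0.17). Both were lower than in control (adjusted p 0.00209 and 0.0128), as were 13 of the 28 members, while 2 were higher. Over all 12545 genes tested, 648 were lower and 1200 higher in the chronic phase than in control.

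Members differed in how far they came back. The protease inhibitor Serpine2 went above control, from 34.3, 43.5 and 42.5 CPM there to 5.19, 4.26 and 5.04 in acute and 85.8, 88.2 and 46.9 in chronic libraries (chronic minus control 0.89, adjusted p 0.00201). The cysteine protease inhibitor Cst3 remained below it, at 1054, 1274 and 859 CPM against 1586, 2382 and 2309 (adjusted p 0.000448).

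**Figure D3:**
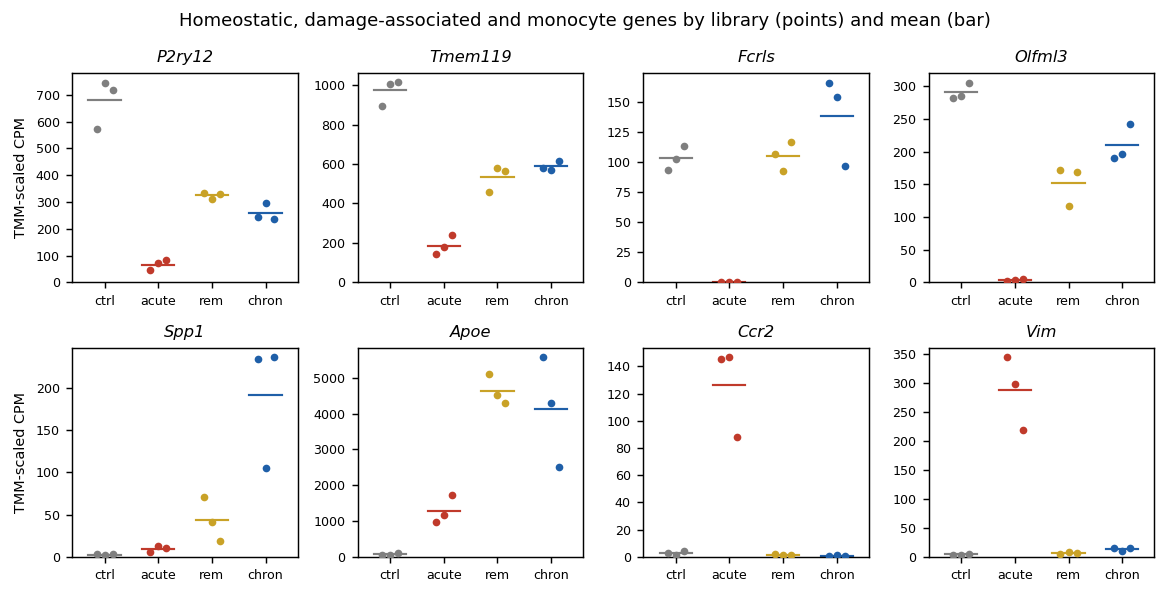
CPM of 8 genes in each of 12 libraries (points) with the group mean (bar), for control, acute, remission (rem) and chronic mice. P2ry12, Tmem119, Fcrls and Olfml3 are lowest in the acute libraries, Spp1 and Apoe are high in the chronic ones, and Ccr2 and Vim are high in the acute libraries alone.

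Transcription factors that hold microglial identity were affected in part. Of 20 tested, 9 were higher (14 with library totals alone), 2 lower and 7 not called but within 2-fold. Mef2c stood at 80.4, 79.7 and 98.4 (acute) and 178, 245 and 207 (chronic) CPM (1.29 ± 0.14, adjusted p 6.71e-07), and Smad3, which carries the TGF-beta signal, at 24.1, 32.8 and 28.5 (acute) and 67.6, 78.1 and 62.5 (chronic) (1.29 ± 0.16). Spi1, which encodes the myeloid factor PU.1, and Irf8 were within 2-fold, with intervals of -0.61 to 0.03 and -0.05 to 0.60. Tfec, a factor of macrophages, went the other way, from 7.52, 6.13 and 11 to 0, 0.18 and 0.255 CPM. In the TGF-beta list 9 of 17 were higher and none was lower (1 or 2 were lower without any 1 of 7 libraries), with a median of 0.549. The receptor Tgfbr1 stood at 292, 270.4 and 324 (acute) and 777, 707 and 551 (chronic) CPM, the integrin subunit Itgb5 at 161, 274 and 315 (acute) and 879.6, 824 and 769.7 (chronic), and the inhibitor Smad7 at 37.6, 39.7 and 37.1 (acute) and 88.8, 87.9 and 70.1 (chronic), each without overlap (adjusted p 1.88e-06, 5.32e-07 and 6.42e-06).

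Damage-associated genes were mostly higher in the chronic phase than in the first attack. Of 31 tested, 20 were higher and 5 lower, with a median of 1.15. In the chronic phase 25 were above control, against 1200 of 12545 over all genes tested. Spp1, osteopontin, stood at 6.23, 12.3 and 10.4 CPM in acute and 234, 106 and 236 in chronic libraries, each chronic library above each acute one (4.32 ± 0.56, adjusted p 0.000462). Apoe, the main lipid carrier of the central nervous system, stood at 960.3, 1154 and 1722 (acute) and 5569, 4294 and 2516 (chronic) CPM (1.69 ± 0.34, adjusted p 0.00486), against 53.3, 53.4 and 108 in control. Trem2, the lipid-sensing receptor of this state, was lower in acute than in chronic libraries, 64.3, 90.3 and 118 (acute) against 363, 413 and 292 (chronic) CPM, and its chronic level differed from control by 0.02 on the log2 scale (adjusted p 0.952). The members that were lower included Lgals3, galectin-3, at 150.2, 122 and 112 (acute) and 13.8, 9.54 and 8.93 (chronic) CPM (-3.57 ± 0.25, adjusted p 5.11e-08). The glucan receptor Clec7a was lower as well, at 194, 146 and 123 (acute) and 57.9, 55.6 and 42.8 (chronic) CPM (adjusted p 0.00112).

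Lysosomal genes shared that direction at a smaller size. Of 33 tested, 16 were higher, 3 lower (1 with library totals alone) and 18 within 2-fold, with a median of 0.31. The hexosaminidase subunit Hexa stood at 41.5, 71.9 and 84.8 (acute) and 244, 236 and 199 (chronic) CPM (1.78 ± 0.19, adjusted p 2.06e-06), and the peptidase Tpp1 at 42.8, 58.1 and 53.7 (acute) and 156, 126 and 116 (chronic) (1.36 ± 0.14). Cathepsin D, Ctsd, stood at 456, 549 and 716 (acute) and 2459, 1704 and 1286 (chronic) CPM, with every chronic library above every acute one (adjusted p 1.48e-05). In the lipid list 7 of 20 were higher and 6 lower, and the median of -0.00163 changed sign with library totals alone (0.199). The higher ones included Lpl and Mylip, a ubiquitin ligase (35.8, 43.4 and 54.2 (acute) against 86.5, 107 and 72.9 (chronic) CPM, adjusted p 6.8e-05). The lower ones included the scavenger receptor Olr1 and the fatty acid binding protein Fabp5.

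Interferon-responsive genes were lower in the chronic phase. Of 40 tested type I interferon genes 32 were lower and none higher, with a median of -1.34. Of 33 interferon gamma genes 27 were lower and none higher (1 higher without chronic replicate 1 or with library totals alone), with a median of -1.88. Cd274 and Nos2 are among the genes that stand in more than 1 list. Oasl2, an antiviral oligoadenylate synthetase-like protein, stood at 112, 141 and 101 CPM in acute and 26.3, 16.9 and 33.2 in chronic libraries (-2.23 ± 0.24, adjusted p 6.97e-06). Parp14 stood at 326, 248 and 248 (acute) and 96, 112 and 135 (chronic) CPM (-1.26 ± 0.16), and Rtp4 at 28, 25.6 and 23.1 (acute) and 2.95, 2.52 and 8.67 (chronic) (-2.48 ± 0.34). None of these acute and chronic values overlapped, which held for 5032 of all 12545 genes tested. The kinase Jak2, which relays the interferon gamma signal, stood at 207, 156 and 113 (acute) and 43.1, 37.3 and 49.5 (chronic) CPM (-1.88 ± 0.18, adjusted p 8.05e-07), and its chronic level did not differ detectably from control (0.29, adjusted p 0.38). The GTPase Ifi47 stood at 72.9, 84.7 and 54.5 (acute) and 1.82, 7.74 and 12 (chronic) CPM, lowest in chronic replicate 1 and highest in replicate 3. A remnant was left for part of these genes: 12 of the 40 and 21 of the 33 were still above control in the chronic phase, and 36 and 30 in the acute phase. Over all 12545 genes tested, 1200 were above control in the chronic and 2977 in the acute phase.

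The site read by interferon-activated factors was looked up in the promoters of these genes. The core of the interferon-stimulated response element was searched as GAAA, any 2 bases and GAAA again, on both strands of the RefSeq window from 250 bases before to 50 after the gene start. It was present in 3.22% of 11499 windows of 8952 tested genes, in 5.39% of the windows of genes lower in the chronic phase and in 3.17% of those higher. In the type I interferon list it was in 18 of 35 windows (51.4%), and in the interferon gamma list in 12 of 25 (48%). Cores may overlap each other, and a match is a description of the letters. The letters are those of the reference genome, and the sequence of the Biozzi ABH strain was not looked at. The windows of 3 genes that were lower in the chronic phase and of 1 that was not are shown, chosen after their values were seen, with the cores in capitals. Isg15 is a ubiquitin-like antiviral protein, Cxcl10 attracts T cells, Ifit1 binds viral RNA, and B2m is the light chain of MHC class I. Positions are GRCm38.p6, chr4:156200769-156201068, minus strand for Isg15, chr5:92348840-92349139, minus strand for Cxcl10, chr19:34640639-34640938, plus strand for Ifit1 and chr2:122147437-122147736, plus strand for B2m, and each is written 5′ to 3′ along its gene.
Isg15: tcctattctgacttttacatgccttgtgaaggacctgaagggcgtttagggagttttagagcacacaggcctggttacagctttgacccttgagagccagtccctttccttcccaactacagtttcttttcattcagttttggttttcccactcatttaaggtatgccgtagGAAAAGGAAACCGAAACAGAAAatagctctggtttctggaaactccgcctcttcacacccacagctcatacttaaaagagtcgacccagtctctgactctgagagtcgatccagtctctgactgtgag
Cxcl10: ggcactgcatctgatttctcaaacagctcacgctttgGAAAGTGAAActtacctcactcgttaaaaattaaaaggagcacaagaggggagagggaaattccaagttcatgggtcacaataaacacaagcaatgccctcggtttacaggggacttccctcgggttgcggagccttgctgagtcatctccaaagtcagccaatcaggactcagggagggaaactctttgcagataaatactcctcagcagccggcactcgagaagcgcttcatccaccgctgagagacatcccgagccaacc
Ifit1: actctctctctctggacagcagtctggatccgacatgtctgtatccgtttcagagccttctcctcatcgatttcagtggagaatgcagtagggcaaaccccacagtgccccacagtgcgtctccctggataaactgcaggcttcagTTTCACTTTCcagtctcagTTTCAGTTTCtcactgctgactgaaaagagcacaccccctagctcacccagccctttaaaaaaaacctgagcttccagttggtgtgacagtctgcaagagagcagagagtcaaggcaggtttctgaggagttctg
B2m: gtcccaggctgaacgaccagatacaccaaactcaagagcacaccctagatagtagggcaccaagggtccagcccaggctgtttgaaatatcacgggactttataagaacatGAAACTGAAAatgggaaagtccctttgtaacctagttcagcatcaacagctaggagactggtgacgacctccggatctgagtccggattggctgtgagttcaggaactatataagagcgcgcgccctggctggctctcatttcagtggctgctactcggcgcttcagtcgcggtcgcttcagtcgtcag

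The window of Isg15 holds 3 cores that overlap, that of Ifit1 holds 2, and those of Cxcl10 and B2m hold 1 each. Isg15 stood at 20.5, 10.9 and 6.52 CPM in acute and 1.14, 1.98 and 4.85 in chronic libraries (-2.29 ± 0.50, adjusted p 0.00161). Ifit1 stood at 36.6, 14.1 and 14.8 (acute) and 1.14, 2.88 and 4.08 (chronic) CPM (-3.02 ± 0.51, adjusted p 0.00025), and Cxcl10 at 109, 114 and 70.2 (acute) and 1.59, 6.48 and 15.8 (chronic) (-3.66 ± 0.67, adjusted p 0.00369). B2m, with the same core, stood at 406, 368 and 363 (acute) and 395, 329 and 364 (chronic) CPM and its interval was within 2-fold. Genes with this core were thus found both among those called lower and among those within 2-fold.

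Cytokines and chemokines split. Of 14 cytokine genes tested, 4 were lower and 2 higher, and of 13 chemokine genes 5 were lower (8 without chronic replicate 3) and 3 higher (1 without chronic replicate 2). Il1b, interleukin-1 beta, stood at 102, 58.9 and 62.2 CPM in acute and 1.59, 5.76 and 3.57 in chronic libraries (-4.30 ± 0.36, adjusted p 1.55e-07), and its antagonist Il1rn at 52.1, 50.9 and 30.2 (acute) and 1.59, 5.22 and 3.06 (chronic) (-3.70 ± 0.38). Il1rn was still above control in the chronic phase (adjusted p 0.0015), and for Il1b no difference from control was called (0.20, adjusted p 0.821). Tnf stood at 32.4, 21.3 and 18.7 (acute) and 3.4, 6.48 and 4.59 (chronic) CPM (-2.30 ± 0.36). Csf1, a growth factor of microglia, was higher in the chronic phase, at 37.9, 30.4 and 42.1 (acute) and 83.3, 102 and 58.7 (chronic) CPM (1.15 ± 0.19, adjusted p 0.000154). Among chemokines, Cxcl9 stood at 17.9, 37.6 and 29.3 (acute) and 2.72, 6.3 and 8.16 (chronic) CPM, Cxcl11 at 17.9, 18.1 and 9.49 (acute) and 0.908, 1.08 and 2.04 (chronic), and Cxcl16 at 108, 90.1 and 74.1 (acute) and 33.8, 42.5 and 40.3 (chronic), all lower in each chronic than in each acute library (adjusted p 0.00307, 0.000322 and 4.58e-06). Cxcl13, which attracts B cells, went the other way, from 1.04, 0.799 and 1.48 to 26.1, 17.5 and 18.4 CPM (4.20 ± 0.45, adjusted p 2.62e-07). Ccl2 could not be placed: it stood at 14.5, 18.6 and 17.2 CPM in acute and 0.454, 4.32 and 14.8 in chronic libraries, so chronic replicate 3 reached the acute range and the others did not (interval -2.85 to 0.05).

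Effector and signalling genes of the first attack were lower too. Of 14 genes of arginine, nitric oxide and itaconate metabolism 8 were lower and none higher, with a median of -1.17. Nos2, the inducible nitric oxide synthase, stood at 129, 109.8 and 82.1 CPM in acute and 0, 0.9 and 0.765 in chronic libraries (-7.48 ± 0.56, adjusted p 2.63e-11). Arg1, arginase, stood at 154, 159 and 152 (acute) and 3.63, 0.54 and 1.53 (chronic) CPM (-6.39 ± 0.44), and Acod1, which makes itaconate, at 104, 116 and 89.5 (acute) and 2.27, 4.14 and 8.42 (chronic) (-4.41 ± 0.29). Acod1 had 0 counts in control, so a remnant was left in all 3 chronic libraries (adjusted p 3.32e-05 against control). Of 22 NF-kB genes 12 were lower and none higher, with a median of -0.743. Tnfaip2 stood at 77.6, 90.8 and 65.8 (acute) and 8.4, 8.64 and 10.46 (chronic) CPM (-3.09 ± 0.21), the kinase Ikbke at 61.2, 78.1 and 67.6 (acute) and 15.4, 16.4 and 15 (chronic) (-2.14 ± 0.18), and the mitochondrial dismutase Sod2 at 84, 87.1 and 63.1 (acute) and 12.5, 9.36 and 15.8 (chronic) (-2.65 ± 0.20). Of 17 genes of the phagocyte oxidase and of iron 9 were lower and 3 higher. Cybb, the catalytic subunit of the oxidase, stood at 689, 549 and 439 (acute) and 33.6, 53.8 and 60.7 (chronic) CPM (-3.50 ± 0.27, adjusted p 3.29e-06), and the iron exporter Slc40a1 was higher, at 4.15, 6.13 and 8.6 (acute) and 40.6, 41.1 and 19.6 (chronic) (2.45 ± 0.30).

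Inflammatory genes that persisted were sought by an explicit rule: higher than control in both phases at an adjusted p under 0.05, and a 95% interval of chronic minus acute within 2-fold. Over all genes 405 of 12545 (3.23%) met it, out of 978 that were above control in both phases. Library totals alone gave 179, and a margin of 1.5-fold gave 149. Both comparisons share the control libraries, so the number describes these libraries and is no test of sameness. The rule admits genes that were also called slightly lower or higher.

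Among the lists, MHC class I held the most such genes. Of 24 tested MHC class I genes, 12 met the rule and 15 were within 2-fold. In the same list 11 were lower (7 without chronic replicate 1, 5 without chronic replicate 2, 6 with library totals alone) and 3 higher, with a median of -0.18. H2-K1, a class I heavy chain, stood at 256, 264 and 282 CPM in acute and 247, 245 and 242 in chronic libraries, against 28.7, 28.2 and 39.9 in control (interval -0.42 to 0.17). B2m stood at an interval of -0.37 to 0.24, with 95.3, 124.4 and 149.5 CPM in control. H2-D1 stood at 1701, 1813 and 1782 (acute) and 1373, 1373 and 1295 (chronic) CPM and was called lower though within 2-fold (-0.39 ± 0.13, adjusted p 0.0262). That call was lost with library totals alone (adjusted p 0.391), in a fit of the 6 libraries alone (0.135), under the title-number covariate (0.0816), and without acute replicate 2 (0.0734), chronic replicate 2 (0.054) or chronic replicate 3 (0.0647). Genes of peptide transport and loading went in both directions. The peptide transporter Tap1 stood at 379, 331 and 369.9 (acute) and 106, 153 and 209 (chronic) CPM (-1.21 ± 0.17, adjusted p 4.36e-05), and Tapbp, tapasin, at 548, 391.9 and 356 (acute) and 205, 213 and 225 (chronic) (-1.01 ± 0.15), both lower. The related Tapbpl and the trimming peptidase Erap1 were not called and were within 2-fold (intervals -0.67 to 0.25 and -0.46 to 0.22). The chaperones Calr, Pdia3 and Canx, which also serve in loading, were the 3 higher genes of the list, Calr at 136, 192 and 179 (acute) and 303, 294 and 345 (chronic) CPM (adjusted p 0.000224), Pdia3 at 125, 139.6 and 155 (acute) and 229.7, 226 and 261 (chronic) (adjusted p 0.000175) and Canx at 168, 176 and 186 (acute) and 249, 247 and 270.3 (chronic) (adjusted p 0.0012). Heavy chain genes share sequence with near-identical copies, so single H2 values are uncertain.

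Of 16 genes of MHC class II and co-stimulation 5 met the rule, 2 were lower (5 without chronic replicate 2) and 1 was higher. The number that met the rule was 8 without chronic replicate 1. It was 3 without chronic replicate 2 or acute replicate 1 and under the title-number covariate. Cd74, the invariant chain, stood at 13.5, 21.6 and 21.4 CPM in control, 1439, 1415 and 2137 in acute and 1762, 3152 and 1399.9 in chronic libraries. Chronic replicate 2 was above every acute library, replicate 1 was within their range and replicate 3 just under it (interval -0.29 to 0.97). H2-Ab1, a class II chain, stood at 0.284, 1.05 and 0.432 (control), 336, 396 and 420.3 (acute) and 248, 531 and 282 (chronic) CPM (interval -0.83 to 0.60). The other chains, H2-Aa and H2-Eb1, were neither called nor bounded within 2-fold (intervals -1.19 to 0.17 and -1.06 to 0.55), and the chronic libraries held 210.2, 497 and 244 CPM of H2-Aa. Ciita, the factor that turns class II genes on, spread too, at 17, 88.8 and 54.1 CPM in chronic libraries against 67.7, 103 and 129 in acute ones (interval -1.97 to 0.19). The peptide exchangers H2-DMa and H2-DMb1 met the rule, H2-DMa at 85.1, 87.1 and 87.4 (acute) and 52.2, 90.9 and 89.8 (chronic) CPM. The 2 lower genes were Cd40 and Cd274. Cd40, a co-stimulatory receptor, stood at 21.3, 24 and 16.6 (acute) and 2.72, 3.6 and 2.55 (chronic) CPM (-2.77 ± 0.37, adjusted p 9.84e-06), and Cd274, which encodes the inhibitory ligand PD-L1, at 199.7, 161 and 152 (acute) and 21.8, 41.4 and 58.7 (chronic) (-2.08 ± 0.25, adjusted p 5.32e-05). The co-stimulatory ligands Cd80, Cd86 and Icosl were not called, with intervals of -0.89 to 0.70, 0.05 to 0.54 and -0.00 to 0.64, and Cd86 was called higher with library totals alone (adjusted p 0.0218). H2-Ob, which restrains class II loading, was the higher one, at 1.3, 4 and 6.82 (acute) and 14.3, 18.5 and 6.89 (chronic) CPM (adjusted p 0.00739), while 3 genes were higher with library totals alone and 2 without acute replicate 3.

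Other persisting genes came from sensing, clearance and adhesion. Tlr2, a receptor for bacterial lipoproteins, stood at 79.9, 75.2 and 82.2 CPM in control, 187, 147 and 176 in acute and 184, 133 and 145 in chronic libraries (interval -0.44 to 0.16), and its partner Tlr1 at 33.2, 44 and 39.1 (acute) and 39.7, 43.2 and 45.7 (chronic) CPM (interval -0.22 to 0.51). In the whole list of pattern recognition and inflammasome genes 18 of 34 were within 2-fold, 11 lower and 6 higher (2 without acute replicate 1, 3 without acute replicate 3). In this list 2 genes met the rule. The count was 1 without acute or control replicate 2 or 3, with library totals alone and under the title-number covariate. The largest decrease was that of the C-type lectin Clec4e, at 64.9, 60.5 and 32.6 (acute) and 0, 0 and 0.765 (chronic) CPM, 247-fold lower (exact counting interval 84.2 to 1203). Clec5a, another C-type lectin, stood at 90.5, 69.5 and 56.9 (acute) and 16.3, 28.4 and 21.9 (chronic) CPM (-1.69 ± 0.19). Axl, a receptor in the clearance of dead cells, stood at 23.6, 20.7 and 41 (control), 339, 398 and 378 (acute) and 509, 382 and 357 (chronic) CPM (interval -0.29 to 0.61). The signalling adaptors Fcer1g and Tyrobp met the rule (Tyrobp was called higher with library totals alone and without acute replicate 2), Fcer1g at 89, 85.3 and 87.7 (acute) and 88.5, 73.1 and 78.8 (chronic) CPM (interval -0.38 to 0.13) and Tyrobp at 54.5, 76.5 and 62 (acute) and 81, 74.2 and 74.5 (chronic) (interval -0.02 to 0.52). Of the type I interferon list 2 genes met it (1 without acute replicate 1, acute replicate 3 or chronic replicate 3, and under the title-number covariate), among them Lgals3bp at 368, 307 and 353 (acute) and 349, 191 and 268 (chronic) CPM (interval -0.73 to 0.03). Lgals3bp was called lower without chronic replicate 1 (adjusted p 0.0151) and in limma-voom (0.0359). The integrin chain Itgb2 (interval -0.57 to -0.06) and the complement receptor C3ar1 (interval 0.26 to 0.85) met the rule, and C3ar1 was called higher within it (adjusted p 0.00521). Itgb2 was called lower without acute or chronic replicate 1, in DESeq2, in limma-voom and with a filter at 10 CPM. With library totals alone 0 complement genes met the rule, against 2, and 0 Fc receptor genes, against 1.

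**Figure D4:**
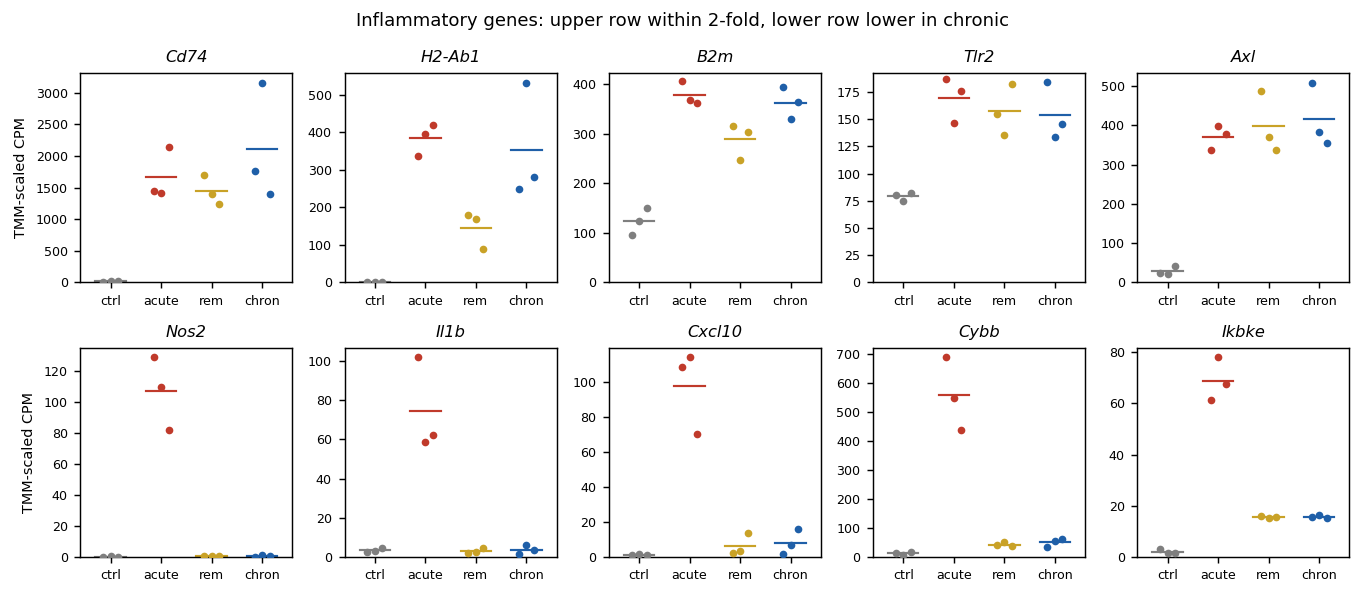
CPM of 10 inflammatory genes in each of 12 libraries (points) with the group mean (bar). The upper row holds genes within 2-fold between the acute and chronic phase and above control in both, and the lower row genes that were lower in the chronic phase.

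Complement genes went in both directions. Of 19 tested, 7 were higher and 5 lower, and the median of -0.00424 changed sign with library totals alone (0.168). The C1q chains, which start the classical pathway, were higher: C1qa stood at 347, 423 and 589 (acute) and 1122, 1008 and 1051 (chronic) CPM and C1qb at 281, 370.1 and 464 (acute) and 1080.5, 954 and 981 (chronic) (adjusted p 9.57e-06 and 1.32e-06), both above control as well (adjusted p 0.00353 and 0.00141). C3, the central component, was lower, at 491, 488 and 462 (acute) and 231, 107 and 102 (chronic) CPM (-1.71 ± 0.25, adjusted p 0.000255), but still above the control libraries at 3.27, 2.1 and 3.24 CPM. Properdin, Cfp, was lower at 20.8, 17.9 and 25.5 (acute) and 3.4, 0.9 and 3.57 (chronic) CPM (adjusted p 1.01e-05). Of 8 Fc receptor genes 4 were within 2-fold, and the inhibitory receptor Fcgr2b was lower, at 167, 159 and 128 (acute) and 57.2, 67.2 and 58.7 (chronic) CPM (-1.31 ± 0.16, adjusted p 5.42e-06).

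Metabolic genes that were called were mostly lower in the chronic phase. Of 18 glycolytic genes 13 were lower, 2 higher (0 without acute or chronic replicate 1) and 9 within 2-fold, with a median of -0.664. Gpi1 stood at 170.4, 169 and 179.6 (acute) and 89, 81.2 and 80.6 (chronic) CPM (-1.05 ± 0.12, adjusted p 1.34e-06), Eno1 at 286, 226 and 241 (acute) and 124.2, 84.4 and 118 (chronic) (-1.21 ± 0.15), and the muscle-type pyruvate kinase Pkm at 379.8, 406 and 342 (acute) and 185, 167 and 214 (chronic) (-1.0 ± 0.14). Pkm was at the same time above control (1.83, adjusted p 4.74e-08) and above remission (0.87, adjusted p 0.00604). Of 23 cholesterol synthesis genes 11 were lower and none higher, with a median of -0.889, and none of them stood above control in the chronic phase. Mvd stood at 15.3, 15.5 and 18.4 (acute) and 2.72, 3.78 and 4.34 (chronic) CPM (-2.17 ± 0.31, adjusted p 1.94e-05), and Insig1, which senses sterols, at 30.4, 21.8 and 20.7 (acute) and 8.63, 7.02 and 8.16 (chronic) (-1.62 ± 0.25). Of 24 nuclear-encoded respiratory chain genes 10 were lower and none higher, but that number fell to 5, 5, 5 and 4 without acute replicate 1, acute replicate 2, chronic replicate 1 and chronic replicate 2, and to 3 with library totals alone. Of 18 hypoxia and stress genes 10 were lower and 2 higher, Hspa5 and P4ha1 (1 without acute replicate 1, acute replicate 3 or chronic replicate 2, and under the title-number covariate). The largest decrease was that of the cystine transporter Slc7a11 at 101, 80.2 and 46.8 (acute) and 1.36, 0.72 and 0.255 (chronic) CPM (-6.54 ± 0.72, adjusted p 8.05e-07). Among growth, matrix and repair factors 12 of 30 were higher and 15 lower. The higher ones were led by Igf1 and Spp1, and the lower ones included the sheddase Adam8, at 51.4, 41.8 and 35.6 (acute) and 11.6, 10.3 and 7.91 (chronic) CPM, and the mannose 6-phosphate receptor Igf2r, at 66.9, 82.1 and 59.9 (acute) and 9.99, 11.7 and 13 (chronic) (adjusted p 6e-07 and 6.26e-09). Of 21 immediate-early genes 5 were lower, Dusp2, Ier3, Egr2, Fosl2 and Klf6, and none higher (1 higher without chronic replicate 1, with library totals alone and in the 6 libraries alone). The phosphatase Dusp2 had the largest of these decreases, from 7.78, 13.9 and 8 (acute) to 0, 0.9 and 0 (chronic) CPM (adjusted p 0.000101), and Fosl2, with the smallest p, stood at 94.7, 62.1 and 55.7 (acute) and 18.8, 11.2 and 13.3 (chronic) CPM (adjusted p 2.92e-07).

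The chronic libraries were not alike in every pathway. Of 25 G2 and M phase genes none was called in edgeR, where 0 had an unadjusted p under 0.05, and 0 in DESeq2 or limma-voom (in edgeR 3 lower without chronic replicate 3, 1 higher without acute replicate 3 and 2 higher without chronic replicate 1), and of 19 S phase genes 1 was higher (2 without chronic replicate 1 or under the title-number covariate). Only 2 of the 25 were bounded within 2-fold. Mki67, a protein of dividing cells, stood at 70.6, 49.8 and 49.2 CPM in acute and 26.8, 20.5 and 125 in chronic libraries, against 8.53, 8.06 and 7.98 in control (interval -1.5 to 1.51). Top2a, which untangles DNA in mitosis, stood at 22, 14.9 and 20.2 (acute) and 14.3, 16 and 69.9 (chronic) CPM (interval -0.65 to 2.23). In both, chronic replicate 3 stood above every acute library, and replicates 1 and 2 were below the lowest acute one for Mki67 and around it for Top2a. Against control, 14 of the 25 were higher in the acute and 15 in the chronic phase. Over all 12545 genes tested, 2977 were higher than control in the acute and 1200 in the chronic phase. The S phase helicase subunit Mcm7 was higher in all 3 chronic libraries, 6.74, 9.59 and 9.19 (acute) against 18.8, 15.8 and 23.7 (chronic) CPM (1.19 ± 0.25, adjusted p 0.00133).

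The same library stood apart elsewhere. For Lpl and for the integrin Itgax, at 45.9, 59.4 and 48.9 CPM in acute and 85.8, 109 and 28.3 in chronic libraries (interval -0.47 to 1.56), replicate 3 was the lowest of the chronic libraries. For the interferon-inducible GTPase Gbp2, at 342, 371 and 304 (acute) and 27.2, 78.1 and 140.3 (chronic) CPM (-2.06 ± 0.48, adjusted p 0.0151), it was the highest, and replicate 1 the lowest. For H2-Aa and Cd74 replicate 2 was the highest. Without chronic replicate 3 the number of genes called between the phases was 3710, against 3610 with it.

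**Figure D5:**
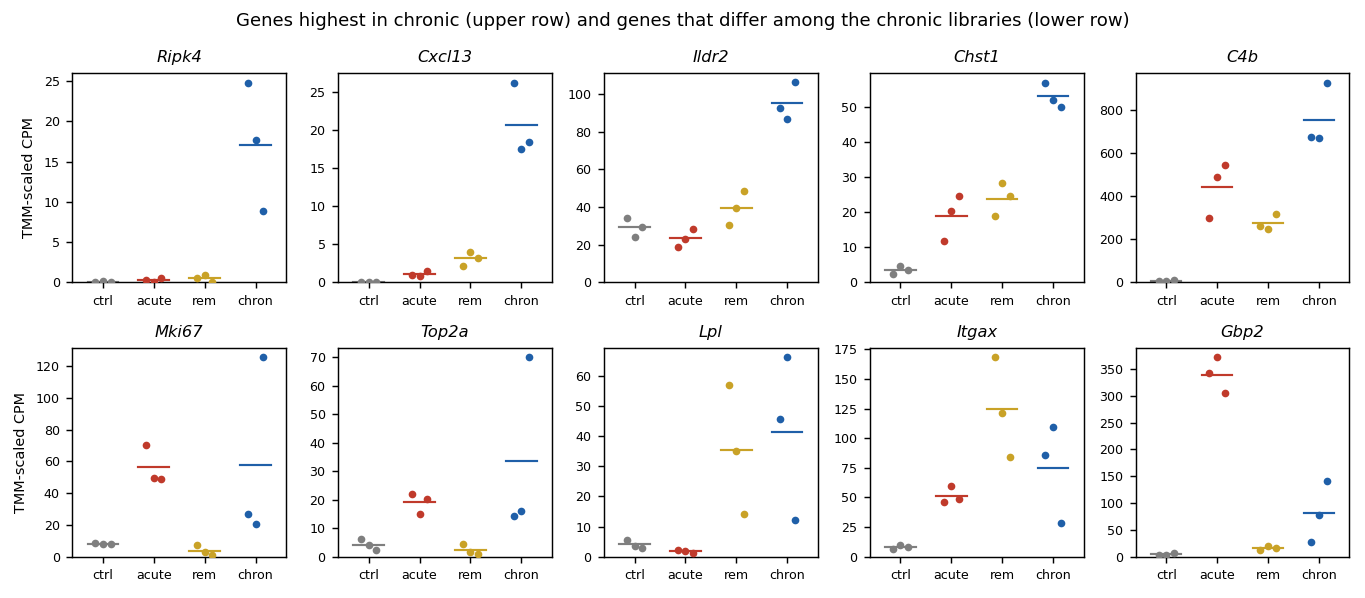
CPM of 10 genes in each of 12 libraries (points) with the group mean (bar). The upper row holds genes that were higher in the chronic phase than in control, acute and remission libraries, and the lower row genes whose 3 chronic libraries differ widely among themselves.

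A small set of genes was highest in the chronic phase. Against remission, the stage before it, 151 of 12545 genes (1.2%) were called in the chronic phase, 118 higher and 33 lower. This count ranged widely with the setting: it was 50 without chronic replicate 3, 272 without chronic replicate 1, 270 without chronic replicate 2, and 94 without control replicate 2. Higher than acute, remission and control alike, each at an adjusted p under 0.05, were 16 genes (0.128%), of which 8 were kept among 10 without chronic replicate 3 and 10 among 10 without acute replicate 2. These 16 were Acaca, C4b, Chrm3, Chst1, Cp, Cxcl13, Flt1, Gcnt2, Gm10499, Gusb, Htra3, Ildr2, Iqgap3, Prune2, Ripk4 and Zfp472, a set chosen after values were seen. Arhgef10l, Fnbp1 and Plxna1 were lower than in all 3 other groups.

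Ripk4 (ENSMUSG00000005251; GRCm38 chromosome 16, 97741933 to 97763787, - strand) stood at 0, 0.175 and 0 CPM in control, 0.259, 0 and 0.593 in acute, 0.554, 0.957 and 0 in remission and 24.7, 17.6 and 8.93 in chronic libraries. It was near 0 everywhere but in the chronic phase, with a pooled ratio over acute of 63.8 (counting interval 21.6 to 312, adjusted p 3.1e-06 against acute and 0.000596 against remission). Cxcl13 stood at 0, 0 and 0 CPM in control and 2.21, 4.02 and 3.19 in remission, so that its chronic level was above every other library of the series (adjusted p 0.000596 against remission). Both were in the set without any 1 acute, chronic or control library, as were Ildr2 and Chst1. No remission library was left out. C4b, a complement component of the classical pathway, stood at 7.54, 4.56 and 11.7 (control), 301, 491 and 546 (acute), 263, 248 and 317 (remission) and 676, 670.4 and 927 (chronic) CPM (chronic minus acute 0.76 ± 0.25, adjusted p 0.0367). It left the set without acute replicate 1 or 2 or any 1 chronic library, in DESeq2 and under the title-number covariate. Ildr2 stood at 18.7, 22.9 and 28.5 CPM in acute, 30.6, 39.4 and 48.6 in remission and 92.6, 86.8 and 107 in chronic libraries (2.03 ± 0.19, adjusted p 1.37e-07), and the sulfotransferase Chst1 at 11.7, 20.2 and 24.6 (acute), 18.8, 28.3 and 24.4 (remission) and 56.8, 51.9 and 49.99 (chronic) (1.5 ± 0.23). Ceruloplasmin, Cp, a copper-carrying ferroxidase, stood at 14.8, 10.7 and 11.9 (acute), 15.9, 19.9 and 28.7 (remission) and 118, 44.5 and 70.1 (chronic) CPM (adjusted p 0.000213 against acute), and left the set without acute or chronic replicate 3 and under the title-number covariate. Flt1, a receptor of vascular growth factors, stood at 9.08, 9.86 and 10.7 (acute), 15.3, 16.5 and 6.64 (remission) and 42.7, 54.4 and 18.9 (chronic) CPM (adjusted p 0.00109 against acute and 0.0462 against remission). Flt1 left the set without any 1 acute or control library or chronic replicate 1 or 2, with library totals alone and under the title-number covariate. Of 6 endothelial and pericyte markers tested 2 were higher than in acute, Flt1 and Pdgfrb, and 3 were lower. The higher count was 1 without any 1 of the acute replicates 1 and 3, chronic replicates 1 and 2 and the control libraries. It was also 1 under the title-number covariate and in the 6 libraries alone. The 14 markers summed to 16.8 to 17.5 CPM in control, 103 to 142 in acute, 30.5 to 35.8 in remission and 43.6 to 74.4 in chronic libraries. The chronic sum was thus below the acute one and above the other groups, without overlap. Flt1 itself is part of that sum, at 42.7 of 59.7, 54.4 of 74.4 and 18.9 of 43.6 CPM in the chronic libraries. The sum is therefore no separate measure of such cells, and it was not formed without Flt1. Anpep, another member, had 973 pooled counts in acute and 57 in chronic libraries. Against control 4 of the 6 tested were higher in the chronic phase, Anpep, Flt1, Kdr and Vwf, and Pecam1 was lower. Over all genes tested 1200 of 12545 were higher. The median log2 difference of chronic minus control was 2.23 in this list, against -0.00908 over all genes. Cldn5 and Tek were at 0 in all acute and all chronic libraries, and Ly6c1 and Kcnj8 in all chronic ones. The part of such cells in the Flt1 level was not tested.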

How the data were processed

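RNA of sorted spinal cord microglia was reverse transcribed with random hexamers and made into Nextera XT libraries, which keep no strand, and read as single reads of 75 bases on 1 flow cell, per the labels' protocols. The submitters' processing notes name HISAT2, SAMtools 1.3.1, Picard 2.6.4, HTSeq 0.6.1 and GRCm38; the annotation release and counting settings are not given in the sources used here. The deposited values are raw read counts per gene made by the authors, with 12 single files equal to the joint table. Of 48526 gene IDs, 48144 were found in GENCODE release 21 for mouse, from which symbols and coordinates come.

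Counts were fitted with edgeR 4.0.16 in R 4.3.3: default filter by expression, trimmed-mean scaling, robust quasi-likelihood fit of all 12 libraries by group, and Benjamini-Hochberg adjustment over 12545 genes. The 95% interval is a t interval from the same fit. Limma 3.58.1 and DESeq2 1.42.0 were alternatives, beside other scalings, filters, a covariate, margins and left-out acute, chronic or control libraries. The procedure was tested on data simulated from the acute levels. There 20% of 1.5-fold, 82% of 2-fold and 96% of 4-fold changes were called. The changed genes were drawn only from those above a minimum mean level in the acute libraries, so these shares do not cover lower genes. Of the unchanged genes 63.6% were bounded within 2-fold. These shares hold for the simulated setting alone. Where a group had 0 counts, a fold is a lower bound against 3 counts over the group. With 1 to 3 counts it is a ratio with an exact counting interval, which covers counting error only. Random priming and PCR without molecular identifiers mean that reads are not independent molecules.

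The groups, gene lists and members were chosen with earlier results of these data known. Named genes were the 10 with the largest change per direction among called genes of at least 10 CPM without overlap, up to 4 per list by smallest p, up to 4 per inflammatory list raised in both phases and within 2-fold, up to 6 inflammatory genes of at least 100 CPM with the narrowest interval, and the genes of the sort. Apoe, C3, C4b, Ccl2, Cd80, Chst1, Ciita, Clec7a, Cp, Cspg4, Cxcl10, Erap1, Gbp2, H2-Aa, H2-Eb1, Hspa5, Icosl, Ifit1, Ildr2, Irf8, Isg15, Itgax, Kdr, Klf6, Mki67, P4ha1, Pdgfrb, Spi1, Spp1, Tapbpl and Top2a were chosen after their values were seen, as were the genes called highest or lowest in the chronic phase. The printed promoters were to come from the genes with the largest change and were instead chosen for the interferon result. Lilrb4a was not matched. Promoter windows are RefSeq's, on GRCm38.p6. Hemoglobin, Ly6 and H2 genes have near-identical copies among which counts can be split. Some named genes are not reported here.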

Additional observations from a re-analysis of the deposited data

How the results depend on the processing

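No gene called between the chronic and the acute phase changed direction under any alternative. Of 152 called genes named by the rule, 139 kept their call under all alternatives that gave them a value other than a test against a 2-fold change. Many of these were named for a large change or a small p, so their share does not stand for all calls. Of all 3610 called genes, 2345 stayed called under the title-number covariate, 2491 without acute replicate 1 and 2609 without chronic replicate 2. With DESeq2's scaling factors in edgeR 3580 did. Library totals alone gave 1271 lower genes, 179 persisting genes and 10 highest in the chronic phase. No filter gave 828 genes between chronic and remission and 50 highest in the chronic phase. DESeq2 gave 357 and limma-voom 48 genes between chronic and remission. The number that ends the sample title is 1 in all chronic and mixed in the acute libraries, and what it stands for is not stated. As a covariate it gave 2402 called genes, 1278 lower and 10 highest in the chronic phase. Under it 6 MHC class I, 6 cholesterol synthesis, 5 respiratory chain, 5 neutrophil and 5 oligodendrocyte and myelin genes were lower. Of pattern recognition genes 2 were higher, and of B and plasma cell markers 1. In the list of MHC class II and co-stimulation 3 genes met the rule of persistence. Other list counts moved as well. A test against a 2-fold change gave 784 genes, 263 higher and 521 lower. A 1.5-fold margin gave 2046 genes within it and 149 persisting. The cause of these shifts was not tested.

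Leaving out 1 acute, chronic or control library at a time gave 2588 to 3710 called genes, 1159 to 1650 higher and 1429 to 2068 lower. It gave 4932 to 5606 within 2-fold, 273 to 385 persisting, 50 to 272 between chronic and remission and 10 to 23 highest in the chronic phase. No remission library was left out, so the counts that involve remission were not tried in that way. No paired analysis was possible because the replicate numbers are record order and link no mice. With 3 libraries per group and 1266782 to 2095754 counts outside the leading features, differences of low genes are often not detectable: 3924 genes were neither called nor bounded within 2-fold.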
